A study of Mus musculus with 6 samples.

Results

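The mRNA of Xbp1 and of the sensors and effectors of the unfolded protein response was followed in mouse oocytes that lack the RNA ligase RTCB. The set holds 10 genes of the 23235 listed in the expression table, taken by symbol: Xbp1, Ern1, Ern2, Eif2ak3, Atf6, Atf6b, Mbtps1, Mbtps2, Atf4 and Ddit3. All 10 symbols were found, and 9 passed the filter for testing (a mean of at least 1 FPKM, fragments per kilobase of transcript scaled to library size, over the 6 libraries). Ern2 did not pass. The libraries were 3 of wild type (WT) and 3 of Rtcb knock-out (KO) fully-grown oocytes at the germinal vesicle (GV) stage, the stage arrested in meiotic prophase, from C57BL/6 mice given the gonadotrophin PMSG 44 to 48 h before collection. Each library pooled 10 oocytes, and both genotypes carry the tag 6W in their titles. Neither the allele, nor the deleted part of Rtcb, nor any driver of its deletion is named in the labels. Separate animals are not named either, so the p-values take in the spread among these libraries, which may be technical.

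The unfolded protein response adjusts a cell to misfolded protein in the endoplasmic reticulum (ER). The membrane sensor IRE1 (Ern1, and in epithelia its paralog Ern2) cuts an intron out of Xbp1 mRNA in the cytoplasm, and RTCB joins the exons, so that the frame shifts and an active transcription factor is made. The sensor PERK (Eif2ak3) phosphorylates eIF2, which lowers translation in general but favours that of Atf4 and, downstream, expression of Ddit3 (CHOP). The sensors ATF6 and ATF6B travel to the Golgi, where the site-1 and site-2 proteases (Mbtps1, Mbtps2) release their transcription factor domains. Much of this control acts on splicing, translation or cleavage, which gene-level FPKM do not show.

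The part of Xbp1 mRNA that needs RTCB is shown because it is the substrate of the missing enzyme. The stretch comes from transcript Xbp1-201 of GENCODE vM21 (2129 bases, build GRCm38). Pairs of CNGCAG, the core of the IRE1 site, were sought whose cut positions, after the third base, lie 26 bases apart. There were 2 such pairs; the one at transcript bases 815 to 840 encloses the known intron. Its excised bases are in capitals, with 20 bases on each side in lower case.
Xbp1 intron: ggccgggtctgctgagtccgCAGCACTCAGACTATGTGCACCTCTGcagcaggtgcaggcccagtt
The values used here count fragments of the whole gene, so RNA that keeps these 26 bases, RNA that has lost them and unjoined exons cannot be told apart.

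The targeted gene Rtcb (row D10Wsu52e) stood at 136, 133 and 113 FPKM in WT 1 to 3 against 3.82, 2.62 and 2.49 FPKM in KO 1 to 3. Values were normalized to ERCC spike-in RNA by the authors, and the values show a single multiplier for each genotype, which lowers KO against WT 0.667-fold. Summed FPKM in KO were 0.741 times those in WT as deposited and 1.11 times with the multipliers removed. In all, 63.3% of 12029 tested genes were called (limma, Benjamini-Hochberg adjusted, threshold 0.05): 9.29% were higher in KO and 54% lower, with a median log2 fold change of −0.47. With the genotype multipliers removed, 25.8% were higher and 18% lower, with a median of 0.044. Fold changes below are on the log2(FPKM + 1) scale, KO minus WT, as deposited unless the removal of the multipliers is named; "both scales" means with and without them. In pooled oocytes, fewer cells and less RNA per cell cannot be told apart. All 12 oocyte markers were present, summing to 32109 to 35026 FPKM in WT and 21781 to 22714 FPKM in KO. Of 16 granulosa markers, 10 had a mean under 1 FPKM, Fshr, Amh and Foxl2 among them (sums of 60.6 to 66.8 and of 48.1 to 61.2 FPKM). Most of that sum in WT was Cyp19a1 (35.6 to 39.8 FPKM in WT, 17.5 to 22.2 in KO, limma adjusted p = 0.000475), while Nr5a2 was higher in KO (9.45 and 13.4 FPKM, 0.0317) and Inha was not called (6.38 and 10.7 FPKM). All 9 stroma and theca markers lay under 1 FPKM, and of 9 blood and immune markers 6 did, Ptprc included (sums of 34.3 to 49.8 and of 19.0 to 37.8 FPKM). Pecam1 made up the largest part of these sums in every library (19.4 of 37.8 FPKM in KO 2). The library KO 2 also held Cd74 (9.52 FPKM) and Lyz2 (5.46 FPKM), both listed at 0 in KO 1 and KO 3. The part of these markers in the results was not tested.

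Of the 9 tested genes, 2 rose and 5 fell as deposited (22.2% and 55.6%, against 9.29% and 54% of all tested genes), and 2 were not called. Xbp1 and Eif2ak3 rose, while Ern1, Atf6, Atf6b, Mbtps1 and Mbtps2 fell, and Atf4 and Ddit3 were not called. The WT and KO libraries did not overlap for 7 of the 9, against 67.8% of all tested genes. With the multipliers removed, 4 rose (Xbp1, Eif2ak3, Atf4 and Ddit3) and Atf6 fell (44.4% and 11.1%, against 25.8% and 18% of all tested genes). In that scaling 4 of the 9 did not overlap, against 56.4% of all tested genes. Xbp1, Eif2ak3 and Atf6 were thus called in the same direction on both scales. Ern1, Atf6b, Mbtps1 and Mbtps2 were called as deposited but not with the multipliers removed, where all 4 were still below 0.

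**Figure D1:**
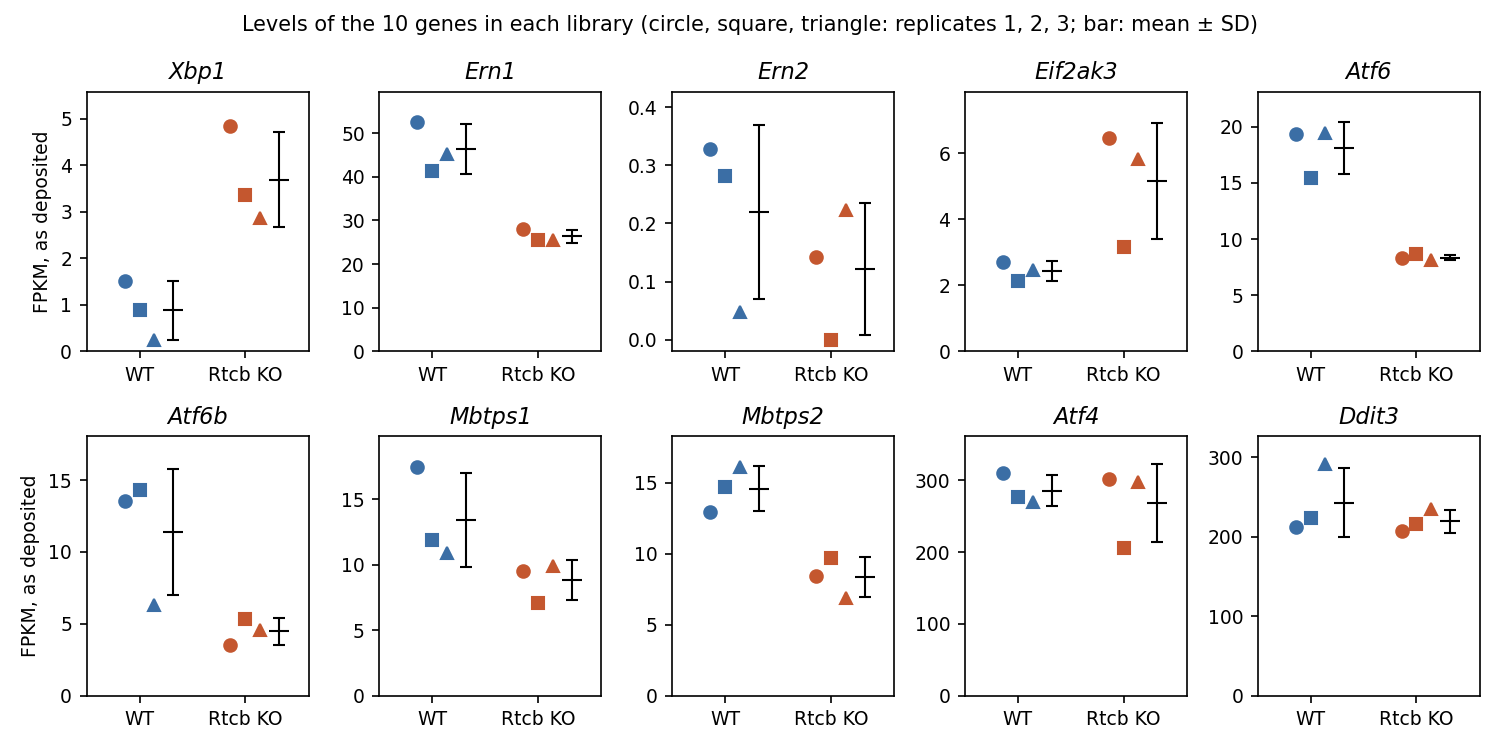
Spike-in normalized FPKM as deposited (y axis, with its own range for each gene) of the 10 genes in the 3 WT and 3 Rtcb KO libraries, with mean ± SD in black. All KO points lie above all WT points for Xbp1 and Eif2ak3, and the groups overlap for Ern2, Atf4 and Ddit3.

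The 10 genes span a wide range of levels in WT oocytes. Atf4 (270 to 311 FPKM) and Ddit3 (213 to 292 FPKM) stood highest and overlapped. Ern1 followed at 41.3 to 52.6 FPKM, apart from its neighbours. Atf6, Mbtps2, Mbtps1 and Atf6b came next, between 6.32 and 19.4 FPKM, with overlapping ranges. Eif2ak3 (2.12 to 2.72 FPKM) lay below them and above Xbp1 (0.251 to 1.51 FPKM), which overlapped with Ern2 (0.0483 to 0.327 FPKM). The transcript of the sensor that cuts Xbp1 was thus far more abundant than Xbp1 itself, per length, in every WT library. In KO, Atf4 and Ddit3 again stood highest and Ern1 next. Atf6, Mbtps1 and Mbtps2 then overlapped between 6.90 and 9.91 FPKM, and Eif2ak3, Atf6b and Xbp1 overlapped between 2.88 and 6.47 FPKM.

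Xbp1, the transcription factor mRNA joined by RTCB, was at 1.51, 0.896 and 0.251 FPKM in WT 1 to 3 and at 4.84, 3.36 and 2.88 FPKM in KO 1 to 3. Every KO library was above every WT library, and WT 3 was the lowest of all. The log2 fold change was 1.35 (SE 0.280, 95% interval 0.704 to 1.997, limma adjusted p = 0.00361), above that of 97.8% of tested genes. It was 1.61 with equal library totals and 1.71 with the multipliers removed (adjusted p = 0.00395 and 0.00240). Omission of single libraries moved it between 1.08 (without WT 3) and 1.59 (without WT 1), with adjusted p up to 0.0144. Xbp1 passed the filter for testing through its KO level, since its WT mean was 0.887 FPKM; with no filter its adjusted p was 0.0111. At this WT level the fold itself is loosely fixed, since the pseudocount of 1 is larger than the WT mean. The log2 fold change was 2.17 with a pseudocount of 0.1 and 0.56 with a pseudocount of 5. Ranks were taken within each library, among the 18553 genes above 0 in any library. Xbp1 moved from the 24.5 to 39.1 percentile in WT to the 47.7 to 53.4 percentile in KO.

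Ern1 encodes IRE1, the kinase and endonuclease that cuts Xbp1. It was at 52.6, 41.3 and 45.3 FPKM in WT 1 to 3 and at 28.1, 25.5 and 25.6 FPKM in KO 1 to 3, so the groups did not overlap. The log2 fold change was −0.78 (SE 0.119, adjusted p = 0.000810), steeper than the median of all tested genes. The fall was called without any one library (−0.86 to −0.69) but not after rescaling: −0.36 with equal totals (adjusted p = 0.0585), −0.28 with median ratios (0.0910) and −0.22 with the multipliers removed (0.173). Its rank, which needs no scaling, was at the 77.8 to 80.6 percentile in WT and at the 76.0 to 77.1 percentile in KO, a small shift without overlap.

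Ern2, the IRE1 paralog known from gut and airway epithelium, was near the floor of the table. It was at 0.327, 0.282 and 0.0483 FPKM in WT, at 0.142 and 0.223 FPKM in KO 1 and KO 3 and listed at 0 in KO 2. These values overlap, and Ern2 did not pass the filter for testing, so no p-value is given. IRE1 transcripts in these oocytes were therefore almost all from Ern1.

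Eif2ak3 encodes PERK, the eIF2 kinase of the ER membrane. It was at 2.72, 2.12 and 2.46 FPKM in WT 1 to 3 and at 6.47, 3.16 and 5.83 FPKM in KO 1 to 3. KO 2, the library with Cd74 and Lyz2, was the lowest KO library but still above all WT libraries, and the part of those transcripts was not tested. The log2 fold change was 0.80 (SE 0.235, 95% interval 0.26 to 1.34, adjusted p = 0.0178), above that of 94.4% of tested genes, and 1.25 with the multipliers removed (adjusted p = 0.00519). The call was lost without WT 2 (adjusted p = 0.0628), KO 1 (0.0631) or KO 3 (0.0674), and the change was 1.06 without KO 2 (0.00175). In rank the gene moved from the 42.1 to 44.8 percentile to the 49.6 to 57.1 percentile.

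Atf6 encodes the sensor whose released fragment activates ER chaperone genes. It was at 19.4, 15.5 and 19.4 FPKM in WT 1 to 3 and at 8.28, 8.64 and 8.16 FPKM in KO 1 to 3, where the libraries lay close together. The log2 fold change was −1.02 (SE 0.134, adjusted p = 0.000436), and the fall was called without any one library. It was also called with equal totals (−0.62, adjusted p = 0.00942), median ratios (−0.55, 0.0146) and the multipliers removed (−0.48, 0.0213). In rank it went from the 65.1 to 68.3 percentile to the 60.4 to 62.2 percentile.

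Atf6b, the ATF6 paralog, was at 13.5, 14.3 and 6.32 FPKM in WT 1 to 3 and at 3.49, 5.36 and 4.60 FPKM in KO 1 to 3. WT 3 stood low, near the highest KO library. The log2 fold change was −1.12 (SE 0.292, adjusted p = 0.0108), from −1.46 without WT 3 to −0.93 without WT 2 (adjusted p = 0.0455). After rescaling the call was lost, at −0.75 with equal totals (adjusted p = 0.0736) and −0.61 with the multipliers removed (0.121), and the ranks overlapped.

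The proteases that release ATF6 were lower as deposited. Mbtps1, the site-1 protease, was at 17.5, 11.9 and 10.9 FPKM in WT 1 to 3 and at 9.54, 7.05 and 9.91 FPKM in KO 1 to 3. The groups lay close, with WT 1 apart from the rest. The log2 fold change of −0.54 was barely called (SE 0.205, adjusted p = 0.0494), was lost without any library but WT 3 (up to 0.146, without WT 1) and was −0.0019 with the multipliers removed (0.996). Mbtps2, the site-2 protease, was at 12.9, 14.7 and 16.1 FPKM in WT 1 to 3 and at 8.45, 9.72 and 6.90 FPKM in KO 1 to 3. The groups did not overlap, and the log2 fold change was −0.74 (SE 0.157, adjusted p = 0.00409), but −0.21 with the multipliers removed (0.318). The ranks of both proteases overlapped between genotypes. Yy2, which overlaps Mbtps2 on the same strand, was at 14.0 ± 2.55 FPKM in WT and 9.24 ± 2.44 FPKM in KO (SD, n = 3), and the labels do not say how shared reads were assigned.

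Atf4 and Ddit3 encode the transcription factors of the PERK arm, and both were abundant in WT and KO alike. Atf4 was at 311, 277 and 270 FPKM in WT 1 to 3 and at 302, 206 and 298 FPKM in KO 1 to 3, with KO 2 low. Ddit3, whose product CHOP is known for its part in cell death under ER stress, was at 213, 223 and 292 FPKM in WT 1 to 3 and at 207, 216 and 236 FPKM in KO 1 to 3. Groups overlapped for both genes. The log2 fold changes were −0.11 for Atf4 (95% interval −0.46 to 0.25, adjusted p = 0.559) and −0.13 for Ddit3 (−0.43 to 0.17, 0.395), and these intervals hold both small rises and moderate falls. The direction depends on the scaling. With the multipliers removed Atf4 was higher by 0.48 (adjusted p = 0.0370) and Ddit3 by 0.45 (0.0255). With equal totals both were above 0 without a call (0.32, adjusted p = 0.156, and 0.30, 0.0724). In rank, Ddit3 was at the 93.3 to 94.9 percentile in WT and at the 95.1 to 95.6 percentile in KO, without overlap, while Atf4 overlapped. Mars, which overlaps Ddit3 on the opposite strand, was far below it (21.1 ± 3.87 FPKM in WT, 9.29 ± 2.04 FPKM in KO).

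**Figure D2:**
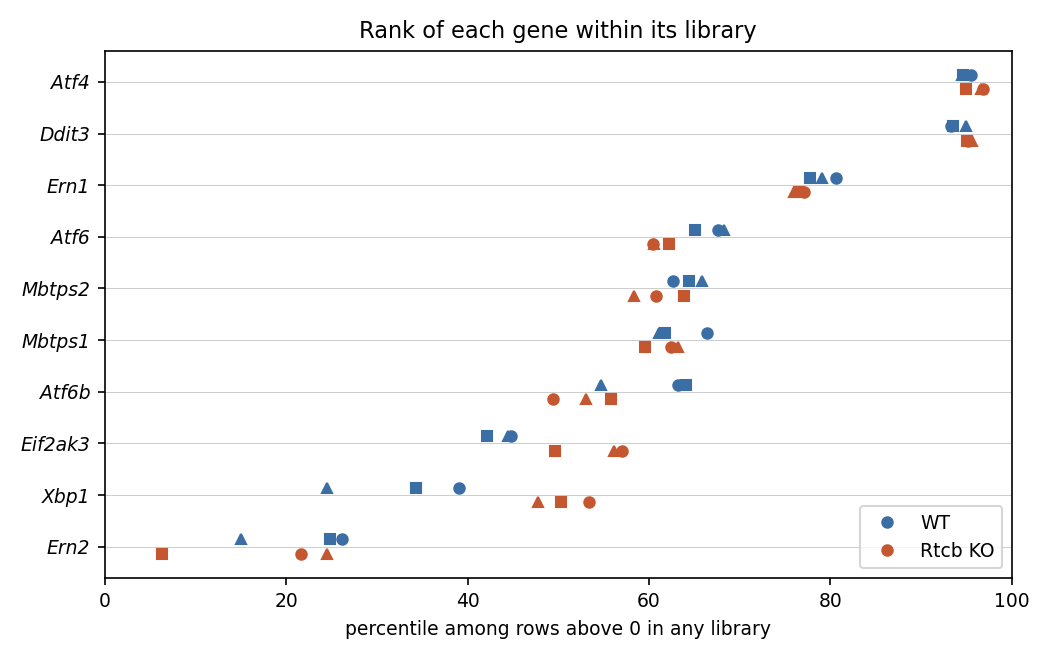
Percentile of each gene (x axis, 0 to 100) among the 18553 rows above 0 in any library, computed within each library so that scaling between libraries has no effect; circles, squares and triangles are replicates 1, 2 and 3. Xbp1 and Eif2ak3 moved up most, Xbp1 by 17.9 and Eif2ak3 by 10.5 percentile points on average.

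The ranks give the plainest comparison that is free of the multipliers. KO libraries ranked above all WT libraries for 3 genes (Xbp1, Eif2ak3 and Ddit3) and below them for 2 (Ern1 and Atf6), and the other 5 overlapped. The share of all ranked genes whose ranks do not overlap was not computed, so these counts only describe the 10 genes. The mean shift was 17.9 percentile points for Xbp1, 10.5 for Eif2ak3, 1.37 for Ddit3, −5.95 for Atf6 and −2.61 for Ern1. Atf6b, whose ranks overlapped, had the largest downward mean shift (−7.87). The same fold change can move a gene by different numbers of points at different ranks, so sizes are not comparable between genes.

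**Figure D3:**
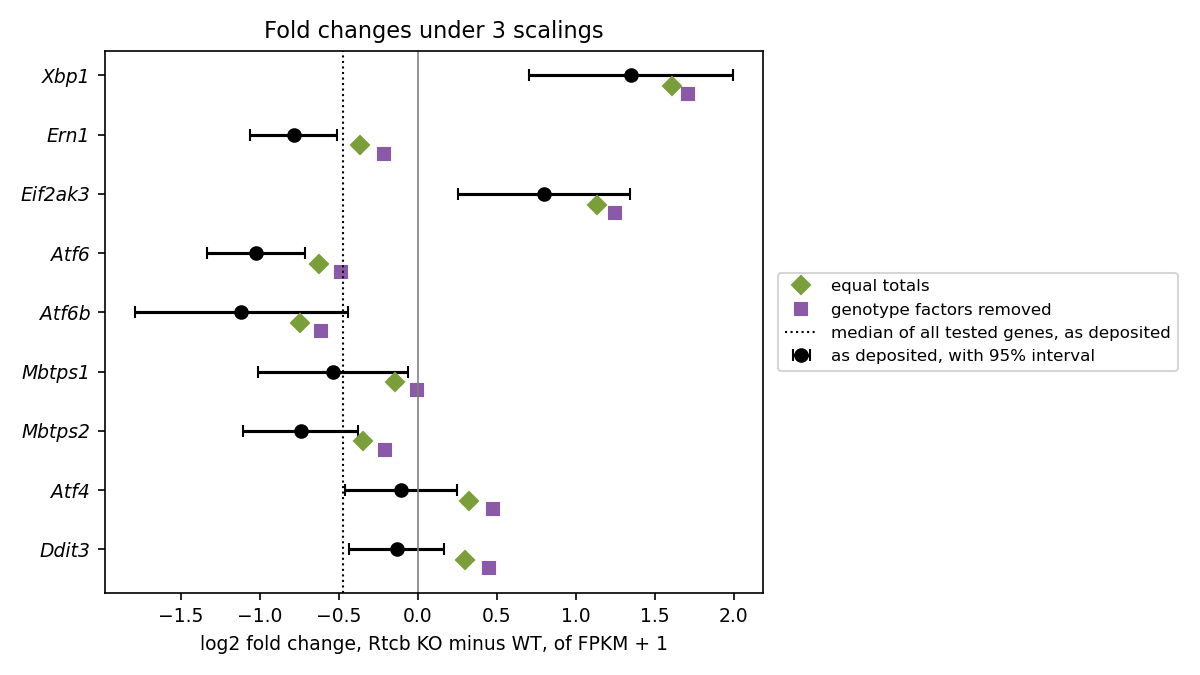
Log2 fold change of FPKM + 1 (x axis, KO minus WT) for the 9 tested genes as deposited with 95% intervals (black), with equal library totals (green) and with the genotype multipliers removed (purple). Removal of the multipliers moves every gene to the right; Atf4 and Ddit3 cross 0, and Mbtps1 comes to lie at 0.

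Ratios of a pair of these genes within a library also do not depend on scaling, and 8 pairs were set up, of which 7 could be computed (Ern2 was listed at 0 in KO 2). Xbp1 relative to Ern1 was 0.0288, 0.0217 and 0.00555 in WT 1 to 3 and 0.172, 0.132 and 0.113 in KO 1 to 3. The ratio was 9.03-fold higher in KO by geometric means (3.18 on the log2 scale, from 2.45 without WT 3 to 3.64 without WT 1). No pseudocount was used, and Xbp1 in WT lay at 0.251 to 1.51 FPKM, so the size of this fold is loosely fixed. On the log2(FPKM + 1) scale Xbp1 changed by 1.35 and Ern1 by −0.78, a smaller difference. Eif2ak3 relative to Ern1 was 0.0517, 0.0513 and 0.0544 in WT and 0.230, 0.124 and 0.228 in KO, a 3.56-fold higher ratio. The WT libraries agree closely here, and KO 2 lies between them and the other KO libraries. Atf6 relative to Ern1 was 0.368, 0.374 and 0.430 in WT and 0.294, 0.338 and 0.319 in KO, and Atf4 relative to Eif2ak3 fell from 110 to 131 in WT to 46.7 to 65.3 in KO. For these 4 pairs no KO library overlapped a WT library. Each had p = 0.1 by the exact permutation test, two-sided, the smallest that 3 against 3 allows, and 0.175 adjusted over the 7 pairs, so none can pass 0.05.

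For the other 3 pairs the groups overlapped, and the data neither show a difference nor show that the ratio stayed the same. The log2 ratio of Atf6 to Atf6b differed by 0.17 (exact permutation p = 0.8), that of Mbtps1 to Mbtps2 by 0.22 (p = 0.7) and that of Ddit3 to Atf4 by −0.026 (p = 0.8). The ratio of Atf6 to Atf6b ran from 1.08 to 3.08 within WT, so these data fix it poorly.

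**Figure D4:**
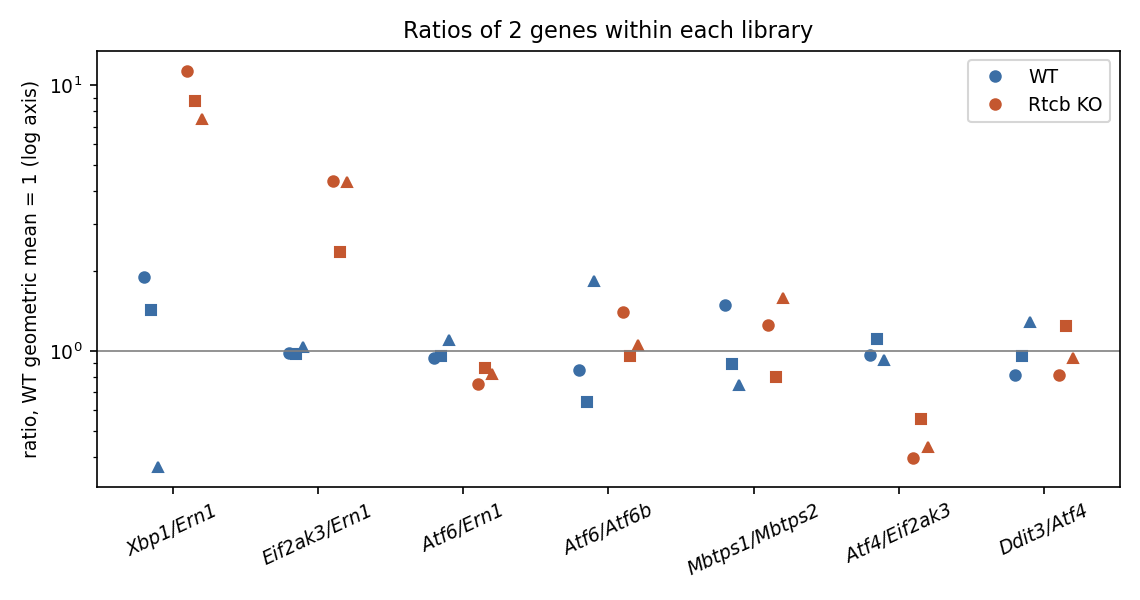
Ratio of 2 genes in each library, divided by the geometric mean of the WT ratios (y axis, log scale), for the 7 pairs; circles, squares and triangles are replicates 1, 2 and 3. KO points lie above all WT points for Xbp1/Ern1 and Eif2ak3/Ern1 and below them for Atf6/Ern1 and Atf4/Eif2ak3.

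The genes whose pattern was most like that of Xbp1 over the 6 libraries, by Pearson correlation of log2(FPKM + 1) among 7917 candidates (mean FPKM 5 or more), were Zfp472 (r = 0.992), Fbxo25 (0.988) and Tbpl2 (0.986). Zfp472 went from 42.1 ± 4.61 FPKM in WT to 56.8 ± 3.91 FPKM in KO, a far smaller relative change than that of Xbp1. For Ern1 they were Ggta1, Nhlrc2 and Acot3 (r = 0.999, 0.998 and 0.998). In all, 59 genes reached r above 0.95 with Xbp1 and 1769 with Ern1. The 6 libraries fall into 2 genotypes that each share a multiplier, so the points behind r are not independent.

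Promoter sequences from RefSeq (build GRCm38.p6, 250 bases before to 50 after the start site) were at hand for 8 of the 10 genes, all but Ern2 and Atf6. Both strands were searched for the ER stress element (CCAAT and CCACG at a set spacing), the UPR element TGACGTGG, the cyclic AMP response element TGACGTCA and the CEBP-ATF composite element TGATGNAAN. None of the 8 windows held an exact match to any of these, against 0.119%, 0.676%, 1.79% and 3.95% of 32851 windows of this length. Near matches were not searched for or counted. In the Ddit3 window, CCAAT on the minus strand is followed at the set spacing by GCACG in place of CCACG. The CCACG end of the ER stress element was in 3 of the 8 (Ern1, Atf4 and Mbtps1), against 32.8% of all windows. The absence of these letters from the windows says nothing of binding elsewhere. The 250 bases upstream are printed for Xbp1 and Eif2ak3, which rose on both scales, and for Ern1, with CCAAT and CCACG on either strand in capitals.
Xbp1, chr11:5520391-5520640, plus strand: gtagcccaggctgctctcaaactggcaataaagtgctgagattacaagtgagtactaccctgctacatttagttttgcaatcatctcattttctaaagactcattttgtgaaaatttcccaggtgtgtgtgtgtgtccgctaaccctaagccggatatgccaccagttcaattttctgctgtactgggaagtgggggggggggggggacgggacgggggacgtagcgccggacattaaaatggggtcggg
Eif2ak3, chr6:70844265-70844514, plus strand: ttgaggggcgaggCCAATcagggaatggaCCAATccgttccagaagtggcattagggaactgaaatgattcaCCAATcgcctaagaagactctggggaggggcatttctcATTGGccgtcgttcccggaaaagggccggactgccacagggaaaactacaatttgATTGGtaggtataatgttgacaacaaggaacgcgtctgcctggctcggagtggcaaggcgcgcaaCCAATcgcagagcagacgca
Ern1, chr11:106487797-106488046, minus strand: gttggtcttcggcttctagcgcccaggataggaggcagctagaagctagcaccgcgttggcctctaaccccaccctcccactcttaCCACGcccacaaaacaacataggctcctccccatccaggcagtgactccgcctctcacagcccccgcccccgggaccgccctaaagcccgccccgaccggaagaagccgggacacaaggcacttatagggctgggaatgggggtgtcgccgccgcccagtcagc
The Eif2ak3 stretch holds 6 CCAAT boxes, and 0.0578% of all windows hold at least as many there, while those of Xbp1 and Ern1 hold 0. CCAAT was added to the search after these sequences were seen.

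The other genes of the pathway were followed in lists that leave out the 10 genes above; some genes stand in more than 1 list. Of 109 tested, 13 rose and 65 fell as deposited (median −0.50), against a median of −0.47 over all tested genes. The targeted gene Rtcb is among the 65. With the multipliers removed 33 rose and 26 fell (median 0.0059, against 0.044 over all), which is 30.3% and 23.9%, against 25.8% and 18% of all tested genes. As deposited, 11.9% of these genes were higher and 59.6% lower, close to the shares over all tested genes.

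Of 14 tested genes for proteins that bind or tune the sensors, 3 rose and 8 fell (21.4% and 57.1%, against 9.29% and 54% of all tested genes). In this list 5 rose and 3 fell with the multipliers removed (35.7% and 21.4%, against 25.8% and 18%). The 3 that rose, Traf2, Bfar and Nck1, were named after their values were seen. Traf2, the adaptor that links IRE1 to kinase signalling, was at 0.612, 0.605 and 0.287 FPKM in WT and at 4.94, 2.43 and 3.10 FPKM in KO (log2 fold change 1.55, adjusted p = 0.000750, and 1.87 with the multipliers removed). It passed the filter through its KO level, since its WT mean was 0.501 FPKM. Bfar, an ER ubiquitin ligase, rose from 29.1 ± 3.68 to 55.1 ± 14.2 FPKM and Nck1, an adaptor known to modulate PERK signalling, from 115 ± 8.62 to 170 ± 32.4 FPKM. Map3k5 (ASK1), the kinase that TRAF2 recruits to IRE1, fell from 27.5 ± 1.47 to 11.2 ± 0.516 FPKM. Wfs1, a regulator of ATF6, fell from 28.7 ± 4.92 to 9.30 ± 0.950 FPKM and Dnajc3, a co-chaperone that also inhibits PERK, from 164 ± 17.5 to 71.0 ± 2.57 FPKM, each called on both scales. Tmbim6, an inhibitor of IRE1, fell as deposited (412 ± 23.0 to 242 ± 4.61 FPKM) but was not called with the multipliers removed (adjusted p = 0.107). Hspa5 (BiP), the chaperone that holds the sensors inactive, was at 329, 274 and 173 FPKM in WT and at 154, 93.1 and 136 FPKM in KO (log2 fold change −0.996, adjusted p = 0.0108), and was likewise not called with the multipliers removed (−0.41, 0.225). Hspa5 was named after its values were seen.

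**Figure D5:**
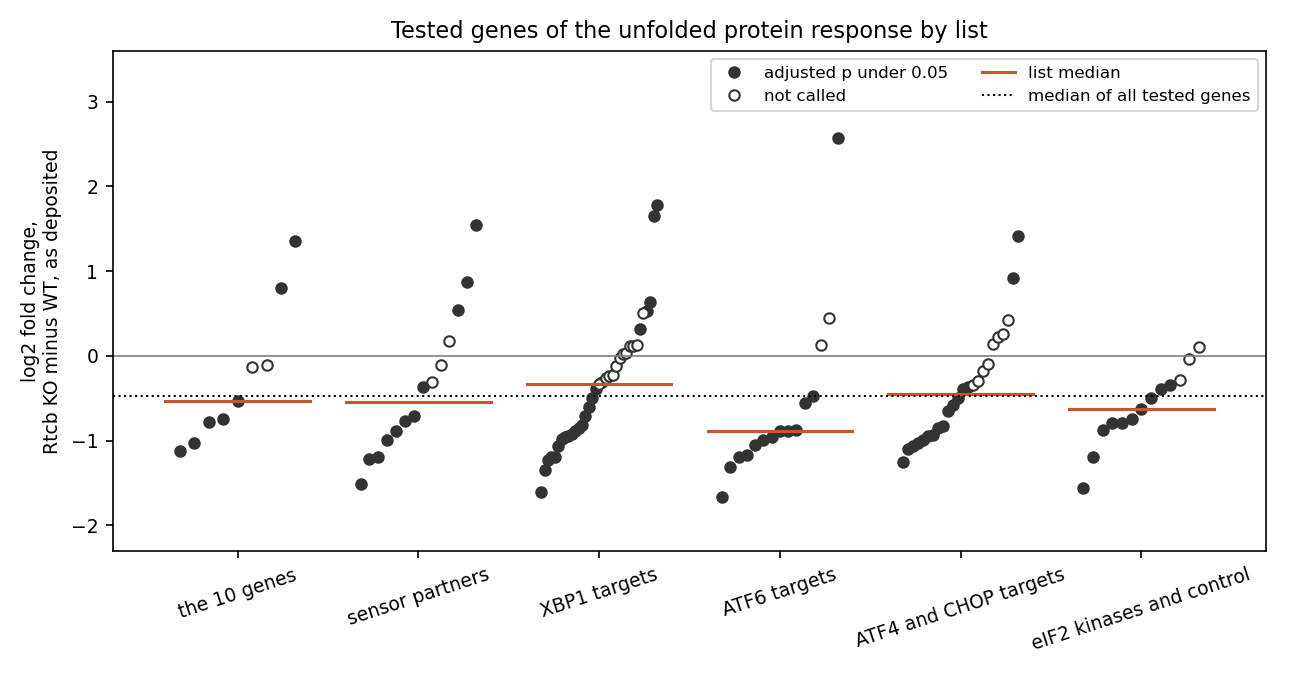
Log2 fold change (y axis, KO minus WT, as deposited) of each tested gene by list, filled where the adjusted p was under 0.05; red lines are list medians and the dotted line is the median of all tested genes. Most genes lie below 0 in each list, and the median of the ATF6 targets (−0.89) lies lowest among the 6 lists drawn.

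Of 35 tested genes known to depend on XBP1, 5 rose and 18 fell (median −0.33), which is 14.3% and 51.4%, against 9.29% and 54% of all tested genes. In all, 14 rose and 9 fell with the multipliers removed (median 0.24, against 0.044 over all), which is 40% and 25.7%, against 25.8% and 18% of all tested genes. Dnajb9, the ER co-chaperone that acts back on IRE1, was at 13.9, 14.0 and 12.1 FPKM in WT and at 51.7, 35.6 and 46.3 FPKM in KO (log2 fold change 1.66, adjusted p = 0.000172), and it was 2.21 with the multipliers removed. Stt3a, of the oligosaccharyl transferase, fell from 92.3 ± 8.23 to 35.6 ± 3.33 FPKM and Dnajb11, another ER co-chaperone, from 177 ± 12.6 to 89.4 ± 4.94 FPKM, both called on both scales. The other 4 that rose, named after their values were seen, were Spcs3, Sec23b, Ostc and Srp19. The count of rises was 3 without WT 2, KO 1 or KO 3, and Srp19 and Sec23b each lost their call without 4 of the libraries (adjusted p up to 0.133 and 0.125).

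Of 15 tested targets of ATF6, 1 rose and 12 fell (median −0.89), which is 6.67% and 80%, against 9.29% and 54% of all tested genes. With the multipliers removed 3 rose and 5 fell (median −0.35), which is 20% and 33.3%, against 25.8% and 18% of all tested genes. Pdia4, a disulfide isomerase, fell from 129 ± 19.6 to 40.0 ± 5.56 FPKM, the chaperone gene Hsp90b1 from 185 ± 9.73 to 73.9 ± 8.43 FPKM and Creld2 from 678 ± 60.8 to 347 ± 7.15 FPKM, all called on both scales. The one that rose was Selenos, listed as H47 and also named after its values were seen, from 1.36 ± 1.21 to 12.4 ± 4.45 FPKM. Without WT 1 the count of rises was 2.

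Targets of ATF4 and CHOP were tested for 24 of the 30 listed, and 2 rose and 14 fell (median −0.45), which is 8.33% and 58.3%, against 9.29% and 54% of all tested genes. With the multipliers removed 6 rose and 4 fell (median −0.040), which is 25% and 16.7%, close to the 25.8% and 18% of all tested genes. Slc7a11, the cystine transporter, fell from 49.9 ± 5.37 to 20.4 ± 2.31 FPKM, Phgdh, of serine synthesis, from 40.2 ± 2.33 to 18.3 ± 1.85 FPKM, and the tRNA synthetase genes Gars and Wars from 90.8 ± 12.1 to 42.7 ± 3.29 FPKM and from 103 ± 13.0 to 51.4 ± 3.10 FPKM. These 4 fell on both scales. Chac1, which degrades glutathione, was at 7.15, 7.62 and 6.46 FPKM in WT and at 26.3, 14.4 and 22.7 FPKM in KO, and Ero1a, listed as Ero1l, rose from 1.13 ± 0.383 to 3.13 ± 1.25 FPKM. Both were named after their values were seen, and the count of rises was 1 without WT 1, KO 1 or KO 3, when Ero1a lost its call. Trib3 (1.46 ± 0.203 and 2.02 ± 0.875 FPKM) and Atf3 (3.25 ± 0.499 and 2.99 ± 0.585 FPKM), which CHOP and ATF4 are known to drive, were not called.

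The genes of 2 other eIF2 kinases fell. Eif2ak1, the haem-regulated kinase, was at 202, 184 and 177 FPKM in WT and at 86.8, 77.0 and 80.7 FPKM in KO, and Eif2ak4 (GCN2), the amino acid sensor, at 25.2, 22.3 and 28.1 FPKM and at 7.76, 8.84 and 7.06 FPKM. Both fell on both scales (log2 fold changes −1.19 and −1.56, adjusted p = 0.000162 and 0.000164, and −0.61 and −1.02 with the multipliers removed), and Eif2ak3 rose on both. Eif2ak2 (PKR) did not pass the filter for testing, with overlapping groups at 0.193 ± 0.0979 FPKM in WT and 0.213 ± 0.116 FPKM in KO. The difference between these kinases was not tested. Of 13 tested genes for other eIF2 kinases, eIF2B and the eIF2 phosphatase, 0 rose and 10 fell by limma as deposited (0 rose at an unadjusted p under 0.05 too). That is 0% and 76.9%, against 9.29% and 54% of all tested genes. In this list 1 rose and 3 fell with the multipliers removed (7.69% and 23.1%, against 25.8% and 18%). Eif2b1 and Eif2b4, subunits of the exchange factor that eIF2 phosphorylation blocks, fell from 563 ± 7.15 to 307 ± 33.8 FPKM and from 299.6 ± 6.43 to 173 ± 7.62 FPKM; Eif2b4 was not called with the multipliers removed (adjusted p = 0.0686).

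IRE1 also degrades some ER-bound mRNAs without ligation. Of 7 known substrates, 3 were tested. Bloc1s1, the best known of them, was at 276, 266 and 368 FPKM in WT and at 279, 303 and 328 FPKM in KO (log2 fold change 0.013, adjusted p = 0.939), with overlapping groups, and was higher by 0.60 with the multipliers removed (adjusted p = 0.0102). Hgsnat fell from 16.0 ± 3.82 to 8.07 ± 1.87 FPKM as deposited and was not called with the multipliers removed (0.184).

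Among relatives of ATF6 in the ER membrane, 2 of 5 were tested. Creb3 rose from 13.9 ± 1.43 to 20.3 ± 3.83 FPKM (adjusted p = 0.0257, lost without WT 1, WT 3, KO 1 or KO 3, up to 0.0938) and by 1.05 on the log2 scale with the multipliers removed. Creb3l4 fell from 172 ± 6.57 to 96.7 ± 15.4 FPKM as deposited and was not called without the multipliers (0.117). Of 5 tested genes whose products the site proteases cut or serve, 0 rose and 3 fell (0% and 60%, against 9.29% and 54% of all tested genes). Removal of the multipliers left 1 higher and 1 lower (20% each, against 25.8% and 18%). The 3 that fell as deposited were Scap (114 ± 13.1 to 58.6 ± 4.35 FPKM), the escort of the Srebf1 product, Gnptab (11.6 ± 1.98 to 5.67 ± 0.322 FPKM) and Srebf1 (25.4 ± 5.62 to 12.3 ± 2.28 FPKM). Scap was called on both scales, Gnptab and Srebf1 as deposited. Of 6 tested genes of the ligase complex, 1 rose (Fam98a) and 5 fell, and 3 fell without KO 3. With all libraries that is 16.7% and 83.3% of the 6, against 9.29% and 54% of all tested genes. Rtcb itself is among the 5, and its fall was set by the knock-out. With the multipliers removed 2 rose and 3 fell (33.3% and 50%, against 25.8% and 18% of all tested genes). Rtcb, Ddx1 and Fam98b fell on both scales, Rtraf (listed as 2700060E02Rik) was then higher by 0.28 (limma adjusted p = 0.0342) and Zbtb8os was at 0.0059 (0.984).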

How the data were processed

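Smart-seq2 libraries of polyadenylated RNA, with ERCC spike-ins, were made from pools of 10 oocytes, 3 per genotype. The tools TopHat2 2.1.1 and Cufflinks 2.2.1 and build mm9 are named per the submitters' processing notes. The authors deposited FPKM per gene, normalized to the spike-ins per the labels; neither strand use nor annotation nor filters are stated there. Read depth is unknown, since FPKM do not keep it.

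The multipliers were read from the values: dividing WT by 2 and KO by 1.33 turned 100% of values of at least 1 back into 6-digit numbers (next best fraction 76.8%). For their removal, values were divided by them and all scaled by one constant. The test, for genes averaging 1 FPKM or more, was limma 3.58.1 on log2(FPKM + 1) (R 4.3.3, intensity trend, two-sided, Benjamini-Hochberg over 12029 genes, threshold 0.05), a step tested on simulated data. Changes were planted there only in genes above about 10 FPKM, so calls at lower levels, such as that of Xbp1, were not covered. Ratios used an exact permutation test (scipy 1.17.1). Members and lists were chosen with earlier results of these data known. Named were the members, Rtcb, up to 4 called genes of smallest p per list and the 3 genes most like Xbp1 and Ern1; all other names, such as Trib3, Atf3, Bloc1s1, Eif2ak2, Rtraf, Zbtb8os, Yy2, Mars and single markers, were chosen once values had been seen. The Xbp1 cut was first set after the sixth base of CNGCAG and then moved to the third, where IRE1 cuts. Listed symbols were matched by current or older names.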

Additional observations from a re-analysis of the deposited data

How the results depend on the processing

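Besides the multipliers, these were varied: the pseudocount (0.1 and 5), the filter (none, or a mean of 10 FPKM), the scaling (equal totals, median ratios), the intensity trend (none), a replicate block and the libraries, each left out in turn. Ratios were repeated on FPKM + 1 and without each library. The calls of Xbp1 and Atf6 were kept under each alternative in which the gene was tested; Xbp1, Eif2ak3 and Atf6b fall under the filter of 10 FPKM. Members called higher and lower numbered 2 and 5 of 9 as deposited (22.2% and 55.6%, against 9.29% and 54% of all tested genes). With the multipliers removed they numbered 4 and 1 (44.4% and 11.1%, against 25.8% and 18%). With equal totals they numbered 2 and 1 (22.2% and 11.1%, against 19.0% and 25.8%). They numbered 3 and 1 with median ratios and 0 and 3 with the filter of 10 FPKM (fewer members tested). Without single libraries they ran from 1 to 2 and from 4 to 5. Of all 12029 tested genes, 1118 were called higher as deposited, 2283 with equal totals, 2746 with median ratios and 3099 with the multipliers removed. Called lower were 6501 as deposited and 3107, 2606 and 2164 under those 3 scalings. With the filter of 10 FPKM (fewer genes tested) 490 were higher and 4694 lower. Without single libraries 774 to 1347 were higher and 5607 to 6240 lower. Of 109 other pathway genes, 23, 29 and 33 were called higher under the same scalings and 38, 35 and 26 lower. With equal totals that is 21.1% and 34.9%, against 19.0% and 25.8% of all tested genes. With the multipliers removed it is 30.3% and 23.9%, against 25.8% and 18%.

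Log2 fold changes under equal totals, median ratios and the multipliers removed were −0.36, −0.28 and −0.22 for Ern1, −0.75, −0.67 and −0.61 for Atf6b, −0.35, −0.27 and −0.21 for Mbtps2, −0.14, −0.067 and −0.0019 for Mbtps1, 0.32, 0.41 and 0.48 for Atf4 and 0.30, 0.38 and 0.45 for Ddit3 (adjusted p of Ddit3 with median ratios 0.0480). Mbtps1 also lost its call at −0.40 with a pseudocount of 5 and at −0.54 with no filter, the filter of 10 FPKM or no trend. Without single libraries Mbtps1 ran from −0.66 to −0.34, Eif2ak3 from 0.64 to 1.06, Atf4 from −0.20 to 0.072 (above 0 without KO 2) and Ddit3 from −0.22 to 0.0073 (above 0 without WT 3). The log2 ratio of Atf6 to Atf6b then ran from −0.15 to 0.61 and that of Ddit3 to Atf4 from −0.20 to 0.16. The cause was not tested.

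Deviations of WT and KO libraries of the same replicate number correlated at 0.141, −0.0988 and 0.0379. Those of different numbers correlated at −0.243 to 0.172. With 3 libraries per genotype these values cannot settle whether the replicate numbers pair the libraries. With the replicate block the members called higher and lower were 2 and 5, and all genes 1108 and 6432, and it changed no call of a member. Read depth is unknown, so no counting error can be given for the low values of Xbp1 and Ern2.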
